A study of Mus musculus with 8 samples.

Results

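Prostaglandins are made from arachidonic acid and removed again by uptake and oxidation, and the 8 genes described here cover both ends of that path in lung endothelial cells. The set holds 3 genes of uptake and inactivation (Hpgd, Slco2a1 and Ptgr1), 4 genes of synthesis (Ptgs1, Ptgs2, Ptgis and Ptges) and 1 receptor (Ptger4). They are 8 of the 43430 gene IDs in the count table, each found by its symbol, and they were chosen from measured values of these same libraries. Their differences between the groups are therefore described without a test. The study sequenced RNA of endothelial cells from the lungs of C57BL/6 mice at postnatal day 15, sorted by flow cytometry for the endothelial surface protein CD31. Tamoxifen was given from day 0 to day 4 after birth to delete QPC in endothelial cells. QPC is taken here to be Uqcrq, the ubiquinone-binding subunit of complex III of the mitochondrial respiratory chain. There were 4 wild type (WT) and 4 knockout (KO) libraries, and the labels describe the same tamoxifen protocol for both groups. The labels name neither the Cre driver nor the alleles of the WT mice. They also do not tie libraries to animals, so p-values cover the spread between these libraries, which may be technical.

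Cyclooxygenases 1 and 2 (Ptgs1 and Ptgs2) turn arachidonic acid into prostaglandin H2, from which prostacyclin synthase (Ptgis) makes prostacyclin and the inducible microsomal synthase (Ptges) makes prostaglandin E2. Prostaglandins act outside the cell on G protein-coupled receptors such as the prostaglandin E receptor EP4 (Ptger4), and they are carried back into cells by the transporter encoded by Slco2a1. Inside, 15-hydroxyprostaglandin dehydrogenase (Hpgd) oxidises them and prostaglandin reductase 1 (Ptgr1) reduces the product. The lung is known for clearing prostaglandin E2 from the blood that passes through it, and uptake by its endothelium is part of that clearance.

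Hpgd and Slco2a1 were the members with lower levels in every KO library than in any WT library, so their promoters are shown here, from 250 bases before to 50 bases after the RefSeq start. The Hpgd promoter lies on the plus strand at chr8:56294302-56294601 and the Slco2a1 promoter on the plus strand at chr9:103008237-103008536, both from RefSeq on GRCm38.p6. Capitals mark the TATA box letters TATAAA and, where present, the E-box letters CACGTG.
Hpgd: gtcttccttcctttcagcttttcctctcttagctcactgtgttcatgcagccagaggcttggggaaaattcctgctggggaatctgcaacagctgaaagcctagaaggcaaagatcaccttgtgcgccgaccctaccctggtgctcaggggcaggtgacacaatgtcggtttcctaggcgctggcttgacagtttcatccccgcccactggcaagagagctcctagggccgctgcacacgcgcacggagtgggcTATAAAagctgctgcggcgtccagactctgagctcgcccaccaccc
Slco2a1: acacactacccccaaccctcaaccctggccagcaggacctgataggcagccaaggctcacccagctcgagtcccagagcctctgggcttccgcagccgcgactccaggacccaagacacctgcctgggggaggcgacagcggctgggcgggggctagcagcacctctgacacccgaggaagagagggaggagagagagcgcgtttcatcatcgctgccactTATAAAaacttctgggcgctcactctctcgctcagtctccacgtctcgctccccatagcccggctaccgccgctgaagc

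RefSeq promoters were found for 7 of the 8 members, all but Ptgis. TATAAA on the gene's own strand occurred in 2 of those 7, Hpgd and Slco2a1, against 8.32% of 32851 promoters of the same length. In Slco2a1 it began 29 bases before the RefSeq start. In Hpgd it began at base 5 after the RefSeq start. The GENCODE M21 annotation puts the starts of the principal transcripts elsewhere, at base 56294585 of chromosome 8 for Hpgd and base 103008002 of chromosome 9 for Slco2a1. Against those starts TATAAA began 29 bases before in Hpgd and 456 bases after in Slco2a1. The other letters searched, on both strands, gave no match that was found in Hpgd and Slco2a1 together other than CACCC, the core of KLF sites, which was in 6 of the 7 member promoters and in 57.5% of all promoters. The E-box CACGTG was in 1 of the 7, Ptgs2, and in 7.15% of all promoters. ACGTG, the core of the hypoxia response element that lies within the E-box letters, was in Slco2a1 and Ptgs2 and in 19.6% of all promoters. TGATGNAA, the core of ATF4 sites, was in Slco2a1 and Ptgr1 and in 3.97% of all. TGACGTCA, the cAMP response element, and CCGGAA, the core of ETS sites, were in none of the 7, against 1.79% and 14.9% of all promoters. GC content was 58.0% in the Hpgd promoter and 64.0% in that of Slco2a1, beside a median of 52.7% over all promoters. These matches describe letters in these windows only.

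Total counts ran from 6407924 to 13981329 per library. Levels below are CPM, read counts per library scaled by total and TMM factor, and fold changes are from edgeR's quasi-likelihood fit of KO against WT over the 12689 genes that passed the filter on low counts. All 8 members passed it. In this fit 461 genes were called at an adjusted p of 0.05, or 3.63% of those tested, of which 285 were higher in KO (2.25%) and 176 lower (1.39%). Scaling the libraries to the 10 endothelial markers instead, an alternative chosen after seeing the data, moved the median log2 fold change of all genes up by 0.144 and the split to 421 higher and 104 lower. Uqcrq, the targeted gene, was at 26.3, 24.5, 26.8 and 31.5 CPM in WT and at 1.59, 15.6, 9.57 and 14.0 CPM in KO. Every KO library was below every WT library, yet 3 KO libraries kept 9.57 CPM or more, and the difference was not called (log2 fold change −1.42, SE 0.53, edgeR adjusted p = 0.179). The 10 endothelial markers were all detected, with summed levels of 14720 to 17460 CPM in WT and 12830 to 16590 CPM in KO. The libraries also held markers of alveolar type 2 cells, epithelial cells that a CD31 sort is meant to leave out, and these summed to 4150 to 23620 CPM in WT and 3940 to 17160 CPM in KO.

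Of the 3 genes of uptake and inactivation, Hpgd and Slco2a1 were lower in KO, and the interval of Ptgr1 was too wide to place it. Hpgd (ENSMUSG00000031613), whose enzyme takes the first step of prostaglandin inactivation, lies at chr8:56294585-56321043 on the plus strand of GRCm38. It was at 1629, 1281, 1711 and 1650 CPM in the 4 WT libraries. In the 4 KO libraries it was at 513, 594, 577 and 798 CPM. The highest KO library was thus well below the lowest WT library. The WT mean of 1568 ± 194 CPM stood against a KO mean of 620.5 ± 123 (SD, 4 libraries each), a 2.53-fold lower level (log2 fold change −1.34, SE 0.15, 95% interval −1.65 to −1.02). As a share of the WT level, that interval runs from 31.8% to 49.2%.

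Slco2a1 (ENSMUSG00000032548; chr9:102988712-103096002, plus strand), the transporter that brings prostaglandins into the cell where Hpgd acts, was lower by a smaller amount. It was at 1419, 2131, 1509 and 1743 CPM in WT. In KO it was at 1144, 908, 939 and 1188 CPM. The groups did not overlap, though the lowest WT library (1419) and the highest KO library (1188) were close. The WT mean was 1701 ± 318 CPM and the KO mean 1045 ± 142, or 61.4% of WT (log2 fold change −0.70, SE 0.14, 95% interval −1.01 to −0.40).

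Hpgd and Slco2a1 were among the genes called lower, and they were the only 2 of the 8 members to be called in either direction. Since their values in this contrast led to their choice, nothing is read from that count beside the 1.39% of all tested genes called lower. In 4.67% of the tested genes all KO libraries were below all WT libraries, and in 11.6% they were all on one side. By size of change Hpgd ranked 34 and Slco2a1 ranked 147 among the 176 genes called lower. Both are abundant: among the 35 genes called lower with a WT mean of at least 500 CPM, Hpgd ranked 5 and Slco2a1 ranked 23. Over the 21 alternatives run, the log2 fold change ranged from −1.49 to −1.20 for Hpgd and from −0.80 to −0.56 for Slco2a1.

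Ptgr1 (ENSMUSG00000028378; chr4:58965439-58987119, minus strand), the reductase that acts after Hpgd, was at 9.3, 4.1, 0 and 15.2 CPM in WT and at 8.0, 12.5, 9.1 and 5.3 CPM in KO. The KO values all lay inside the WT range. Its 0 in WT replicate 3 allows up to 0.449 CPM, the level of 3 counts there, which is a limit of counting error only. The log2 fold change was 0.28 (SE 1.04, 95% interval −1.93 to 2.48), which is 26.3% to 559% of the WT level.

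**Figure D1:**
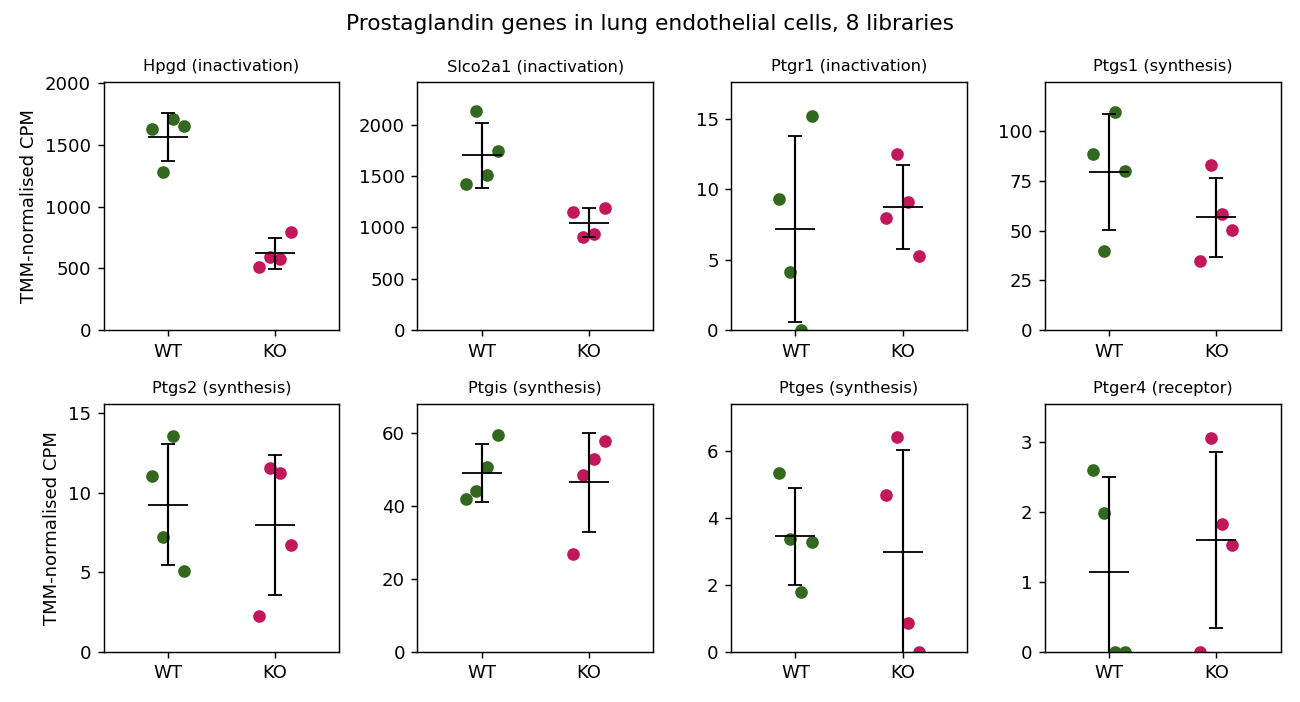
TMM-normalised CPM of the 8 members in each library, with WT in green and KO in pink on separate linear axes that start at 0. Horizontal lines are means and bars are SD (n = 4; bars that pass below 0 are not drawn there), and the groups are apart for Hpgd and Slco2a1 and overlap in the other 6 panels.

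None of the 4 genes of synthesis was called in either direction, and in each the KO and WT libraries overlapped. Over all tested genes only 3.63% were called and only 11.6% did not overlap, so nothing is read from this count. Ptgs1 (ENSMUSG00000047250; chr2:36230426-36252272, plus strand), the constitutive cyclooxygenase, was at 88.4, 39.7, 109.6 and 80.3 CPM in WT. It was at 34.9, 82.8, 58.6 and 50.3 CPM in KO. WT replicate 2 was low within its group, and KO replicate 2 lay above WT replicates 2 and 4. The means were 79.5 ± 29.3 and 56.7 ± 20.0 CPM, and the log2 fold change was −0.49 (SE 0.31, 95% interval −1.14 to 0.16). Ptgs1 is the one gene of synthesis whose interval lay mostly on one side of 0, and it reached from 45.5% to 112% of the WT level.

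Ptgis (ENSMUSG00000017969; chr2:167191805-167240604, minus strand), which makes prostacyclin, a product that endothelium is known for, was at 41.8, 44.3, 50.8 and 59.5 CPM in WT. It was at 26.9, 48.5, 52.9 and 57.9 CPM in KO, where 3 of the 4 libraries lay inside the WT range and replicate 1 lay below it. The means were 49.1 ± 7.92 and 46.5 ± 13.6 CPM (log2 fold change −0.08, SE 0.27, 95% interval −0.64 to 0.49). Of the members that were not called it was the most closely measured, with an interval of 64.1% to 140% of the WT level.

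Ptgs2 (ENSMUSG00000032487; chr1:150100031-150108227, plus strand), the inducible cyclooxygenase, was low in both groups. It was at 11.0, 7.2, 13.6 and 5.1 CPM in WT and at 2.2, 11.6, 11.2 and 6.7 CPM in KO (log2 fold change −0.22, SE 0.75, 95% interval −1.81 to 1.38). Ptges (ENSMUSG00000050737; chr2:30889471-30929863, minus strand), which follows the cyclooxygenases to make prostaglandin E2, was at 5.4, 3.4, 1.8 and 3.3 CPM in WT and at 4.7, 6.4, 0.9 and 0 CPM in KO, where a 0 in replicate 4 allows up to 0.217 CPM. Its log2 fold change was −0.21 (SE 1.57, 95% interval −3.53 to 3.12). Intervals this wide leave changes of several fold undetectable in Ptgs2 and Ptges.

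Ptger4 (ENSMUSG00000039942; chr15:5206661-5244187, minus strand), the receptor EP4, was close to the limit of these counts. It was at 2.6, 2.0, 0 and 0 CPM in WT and at 0, 3.1, 1.8 and 1.5 CPM in KO, so 3 of the 8 libraries had no count. A count of 0 allows up to 0.449 CPM in WT replicate 3, 0.247 in WT replicate 4 and 0.281 in KO replicate 1. The log2 fold change was 0.47 with an interval of −3.9 to 4.85, and no difference between the groups was detectable at this depth. Ptger4 also lies across the antisense gene Ttc33, which had 21 to 297 counts per library, and no source used here gives the strand setting of the counting. For other members, the partners of Slco2a1 and Ptges that are in the table had no counts, and the antisense partners of Ptgis had at most 49. Gm45540, Gm43621 and Gm47468, which overlap Hpgd, Ptgs1 and Slco2a1 in the annotation, have no row in the table. Whether members lost reads shared with partners was not tested.

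**Figure D2:**
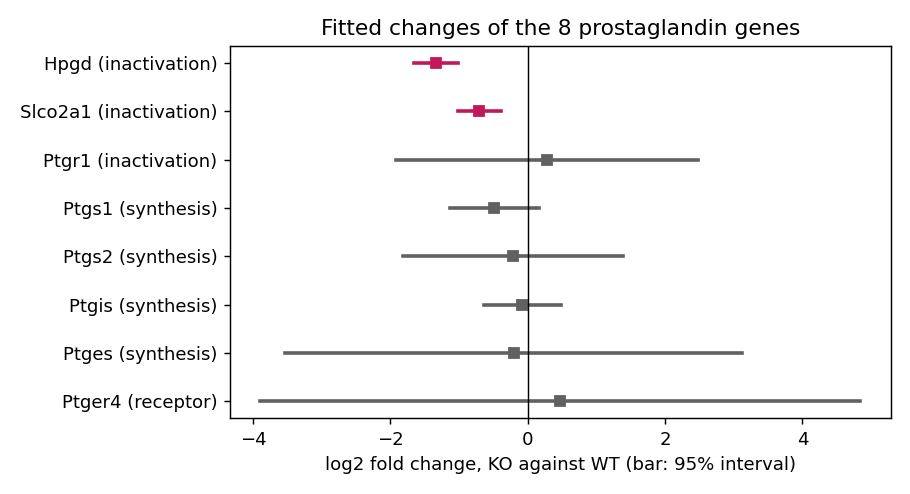
Fitted log2 fold change of each member, KO against WT, with its 95% interval; pink marks the genes called lower in the fit over all 12689 genes. The intervals of Hpgd (−1.65 to −1.02) and Slco2a1 (−1.01 to −0.40) lie below 0, those of the other 6 members cross it, and the widest belong to Ptges and Ptger4.

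Levels can be ordered between genes only per length, here as CPM per kilobase of the union of a gene's exons. On that scale Hpgd stood far above the other members in WT, at 931.5 ± 115 CPM per kilobase, which ranked 20 among 12634 genes. In KO it was at 368.7 ± 73.2 and ranked 89. It therefore remained the highest of the 8 in KO. Slco2a1 came next at 125.6 ± 23.5 in WT (rank 327) and 77.1 ± 10.5 in KO (rank 608), although its exon union is long, and over the principal transcript alone it was at 238.8 and 146.7 CPM per kilobase. Ptgs1 and Ptgis followed, at 20.5 ± 7.54 and 19.1 ± 3.08 CPM per kilobase in WT and at 14.6 ± 5.15 and 18.1 ± 5.31 in KO. These neighbours overlapped in both groups, so their order is not settled. Ptgr1 at 3.12 ± 2.87, Ptgs2 at 2.02 ± 0.83 and Ptges at 0.878 ± 0.372 in WT formed a low tier in which each overlapped its neighbour. Ptger4 was lowest at 0.172 ± 0.202 in WT, with its highest WT library (0.39) below the lowest for Ptges (0.456). Over principal transcripts alone these 2 overlapped in WT, at 0 to 0.794 for Ptger4 and 0.492 to 1.47 for Ptges. In KO the ranges of Ptges and Ptger4 overlapped.

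The summed CPM of the inactivation genes was lower in KO, while that of the synthesis genes overlapped between groups. CPM summed over Hpgd, Slco2a1 and Ptgr1 was 3276 ± 172 in WT and 1674 ± 222 in KO. Ptgr1 gave a mean of 7.16 CPM in WT and 8.72 CPM in KO, so this sum repeats the values of Hpgd and Slco2a1. CPM summed over Ptgs1, Ptgs2, Ptgis and Ptges was 141 ± 33.9 in WT and 114 ± 33.6 in KO. The ratio of the first sum to the second, which is read only between groups because CPM is not divided by length, was 20.9, 36.1, 18.3 and 23.0 in WT and 24.2, 10.2, 12.4 and 17.3 in KO. The groups overlapped, and the highest library of each, WT replicate 2 and KO replicate 1, had the lowest Ptgs1 of its group. The means were 24.6 ± 7.94 and 16.0 ± 6.24. With each gene given equal weight instead, as the mean log2 CPM of the inactivation genes minus that of the synthesis genes, the values were 3.67, 3.95, 1.96 and 4.36 in WT and 4.03, 3.01, 3.63 and 4.49 in KO, a difference of 0.30 in the opposite direction. Without WT replicate 3, where Ptgr1 was at 0, the difference was −0.21. No direction of the balance between inactivation and synthesis is therefore given. These values carry no test, since the members were chosen from them.

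Within the inactivation arm the ratio of Hpgd to Slco2a1 CPM was 1.15, 0.601, 1.13 and 0.947 in WT and 0.449, 0.654, 0.614 and 0.672 in KO. Only WT replicate 2 lay among the KO values. Hpgd relative to Ptgs1 was 21.7 ± 7.33 in WT and 11.9 ± 4.08 in KO, with KO replicates 1 and 4 (14.7 and 15.9) on either side of the lowest WT library (15.6).

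In bulk RNA, fewer cells of a type and less RNA per cell cannot be told apart. Markers of general capillary cells moved in the same direction as Hpgd and Slco2a1. Of 8 such markers, among them Gpihbp1, Kit and Aplnr, 6 were called lower and none higher, and none was at 0 in all libraries. Over all tested genes 1.39% were called lower and 2.25% higher. The summed level of these 8 markers was 5236 to 8192 CPM in WT and 3049 to 4397 CPM in KO. The KO mean was 56.2% of the WT mean (two-sided exact permutation test, p = 0.02857, the smallest possible with 4 against 4, and 0.214 adjusted over 15 marker lists). Marker lists were chosen with earlier results of these data known, so p-values of marker sums are given as a description only. Hpgd was at 39.6% and Slco2a1 at 61.4% of WT. The part of these cells in the differences of Hpgd and Slco2a1 was not tested. Of the 10 general endothelial markers 2, Tek and Erg, were themselves called lower. Relative to the sum of these 10, Hpgd was at 100.4 ± 18.4 counts per 1000 endothelial marker counts in WT and 43.8 ± 10.6 in KO, and Slco2a1 at 107.4 ± 15.2 and 72.8 ± 7.64, with no overlap between the groups for either. Aerocyte markers summed to 3137 to 3778 CPM in WT and 2569 to 3812 in KO, with 1 of 8 called lower.

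Within each group the library with the lowest alveolar type 2 sum, WT replicate 2 at 4150 CPM and KO replicate 1 at 3940 CPM, also had the lowest Hpgd. With that sum as a covariate, 1 of the alternatives run, the log2 fold change was −1.29 for Hpgd and −0.78 for Slco2a1. The part of these cells in either difference was not tested. Ptgs1 was low in the same libraries as markers of other cells. WT replicate 2 and KO replicate 1 had the lowest Ptgs1 of their groups, and also the lowest sums of the 8 alveolar type 2, 8 fibroblast and 9 mural markers (39.1 and 97.2 CPM for mural markers). With the alveolar type 2 covariate the log2 fold change of Ptgs1 was −0.28. Platelets are known to carry Ptgs1, and the 10 platelet and megakaryocyte markers summed to 20.6 to 66.0 CPM in WT and 102.7 to 126.9 CPM in KO (exact permutation p = 0.02857, adjusted 0.214; 0 called). Their part in the Ptgs1 levels was not tested.

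**Figure D3:**
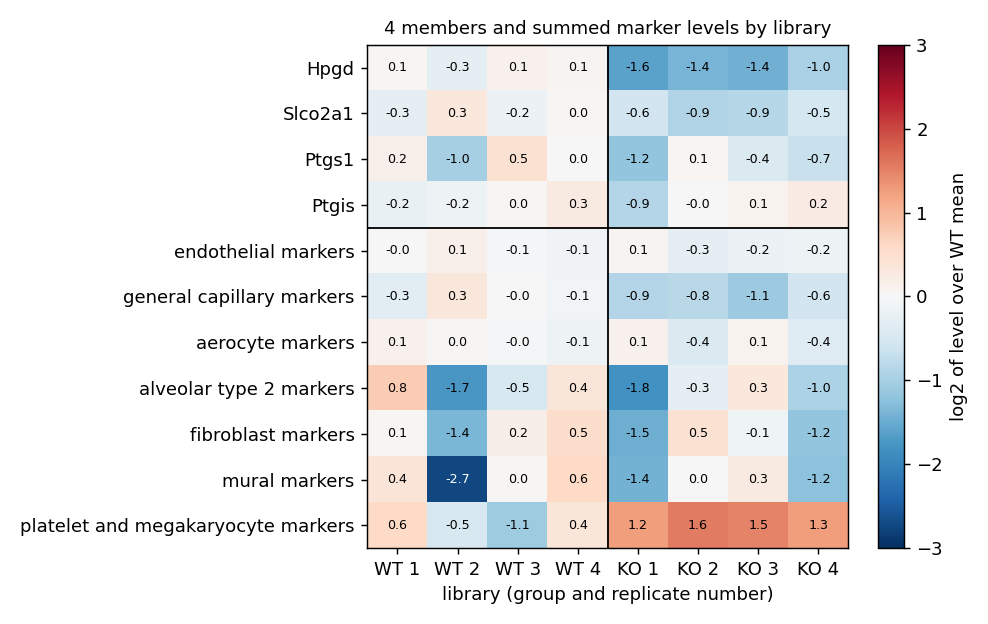
Log2 of each library's level over the WT mean, for 4 members above the line and for the summed levels of 7 marker lists below it; columns are the 8 libraries. Hpgd, Slco2a1 and the general capillary markers are below the WT mean in all 4 KO libraries, platelet markers are above it there, and Ptgs1 is low in WT 2 and KO 1 together with the alveolar type 2, fibroblast and mural markers.

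The genes whose profiles over the 8 libraries were most like that of Hpgd, by the root mean square difference of centred log2 CPM among 10390 genes, were Fam84b at 0.141, Mfap4 at 0.165 and Hilpda at 0.181. For Slco2a1 they were Rassf3 at 0.073, Maoa at 0.103 and Gpihbp1, the capillary anchor of lipoprotein lipase, at 0.107. All 6 were called lower in KO, for example Fam84b with 119.6 ± 18.9 CPM in WT against 50.6 ± 7.16 in KO, and Gpihbp1 with 382.2 ± 46.1 against 215.1 ± 34.0. These 6 were picked for their likeness to members called lower, so their calls follow from that choice. Nothing is read from them beside the 1.39% of all tested genes called lower. Hpgd and Slco2a1 were at 0.453 from each other. The nearest genes to Ptgs1 were Prag1 at 0.167, Ahsa2 at 0.17 and Josd1 at 0.18, none of them called.

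No tested gene from a wider list of the arachidonate and eicosanoid pathways was called, where 3.63% of all tested genes were. With so few genes, nothing is read from that count or from those of the role groups below. Of 58 further genes listed, 57 are in the table, 2 of these had no count in any library, and 38 passed the filter. Their median log2 fold change was −0.02, with 17 above 0 and 21 below, beside a median of 0.01 over all genes tested. edgeR and limma voom called 0 of the 38 and DESeq2 called 1, Akr1b8. At an unadjusted p under 0.05 there were 4, or 10.5%, against 15.2% of all genes tested. Of these, 3 were among the 7 other prostanoid synthases (42.9%) and 1 among the 13 genes of arachidonate release and recycling.

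Among 13 tested genes that release or recycle arachidonic acid the median was −0.03. Mgll, the monoacylglycerol lipase that frees arachidonic acid from an endocannabinoid, was at 253 ± 33.1 CPM in WT against 375 ± 115 in KO (log2 fold change 0.57, SE 0.20, edgeR adjusted p = 0.142), and of 21 alternatives it was called in 1, without KO replicate 4 (0.72). Daglb, a diacylglycerol lipase, was at 4.75 ± 3.65 and 13.4 ± 6.40 CPM (adjusted p = 0.497), and it overlaps Rac1 on the other strand. Pla2g4a, the cytosolic phospholipase that supplies the cyclooxygenases, had means of 11.8 and 11.6 CPM, and it is named after its values were seen.

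The 7 other prostanoid synthases had a median of 0.58, with 5 above 0 and 2 below. Akr1b8, an aldo-keto reductase of the family that holds prostaglandin F synthases, was at 3.0, 3.3, 6.6 and 0 CPM in WT and at 49.7, 20.0, 26.7 and 22.9 CPM in KO. Every KO library was above every WT library, and the log2 fold change was 3.23 (SE 0.89, edgeR adjusted p = 0.0745). It was called in 3 of 21 alternatives, by DESeq2, with edgeR's newer dispersion option and without WT replicate 4 (log2 fold change 2.81). Reads of closely related reductases could be split between genes in such a family, which was not tested, so this value is uncertain. Ptges3, a co-chaperone that also acts as a prostaglandin E synthase, was at 137.5, 80.0, 104.9 and 126.8 CPM in WT and at 144.0, 192.8, 165.8 and 170.5 CPM in KO. It too was higher in every KO library (log2 fold change 0.58, SE 0.18, adjusted p = 0.101), and of 21 alternatives it was called in 1, the alveolar type 2 covariate. Cbr1, a carbonyl reductase named after its values were seen, was at 42.4 ± 19.9 CPM in WT and 23.4 ± 5.42 CPM in KO (log2 fold change −0.86, edgeR adjusted p = 0.275), and without WT replicate 3 it was called lower (−1.13, adjusted p = 0.0498).

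Of 9 other receptor genes listed, 4 passed the filter. Ptgfrn, a membrane protein that binds the prostaglandin F receptor, was at 926 ± 69.4 CPM in WT and 805 ± 80.9 CPM in KO (log2 fold change −0.20, SE 0.12, edgeR adjusted p = 0.492). Ptgir, the prostacyclin receptor, had no count in 4 libraries and at most 3.05 CPM in any. Tbxa2r, the thromboxane receptor, is named after its values were seen, and it was at 48.3 ± 19.5 CPM in WT and at 49.1 ± 12.7 CPM in KO.

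None of the 5 other tested genes of inactivation and export was called, and their median was −0.12. Slco3a1, a carrier of the same family as Slco2a1, was at 96.9 ± 17.8 CPM in WT and 110 ± 22.8 CPM in KO (log2 fold change 0.18, SE 0.20, edgeR adjusted p = 0.803). Zadh2, which encodes a prostaglandin reductase, was at 58.8 ± 8.86 and 51.5 ± 8.11 CPM (log2 fold change −0.19, adjusted p = 0.825). Of 9 further eicosanoid enzymes with a median of −0.09, Cyp2j6, an epoxygenase, was at 33.0 ± 9.07 and 20.7 ± 7.04 CPM (adjusted p = 0.37). Alox12, a lipoxygenase that is also on the platelet list, was at 12.6 ± 4.95 and 20.4 ± 4.52 CPM (adjusted p = 0.538).

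**Figure D4:**
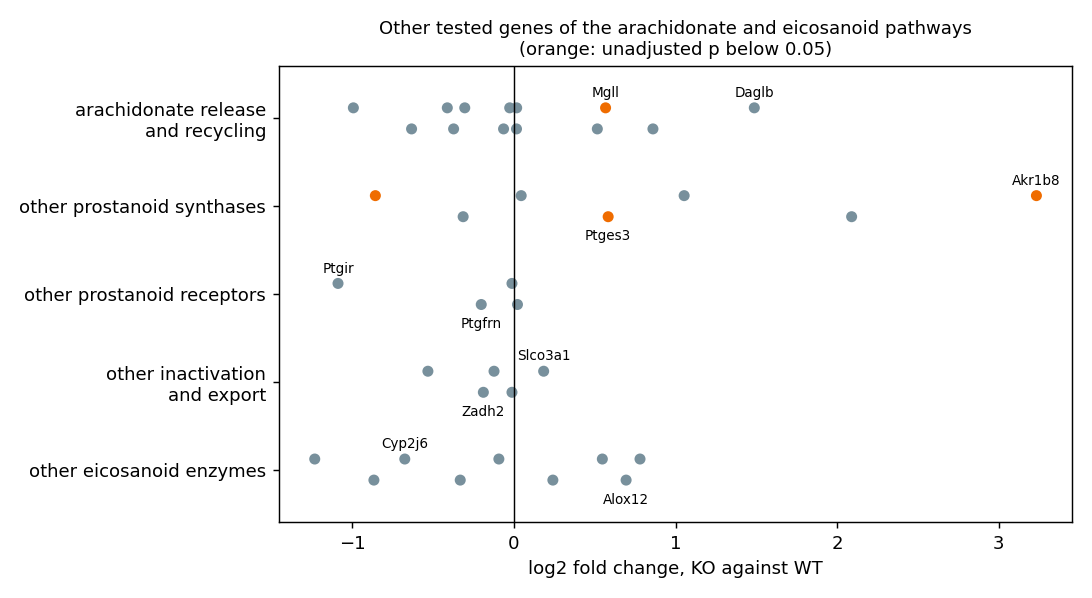
Log2 fold changes, KO against WT, of the 38 tested genes of the wider list in 5 role groups, 1 point per gene (vertical spread is for legibility); orange marks an unadjusted p under 0.05 and the genes chosen by the naming rule are labelled. None passed the adjusted threshold, and Akr1b8 at 3.23 lies farthest from 0.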

How the data were processed

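RNA of 4 WT and 4 KO libraries was sequenced; no source used here gives the strand setting. The submitters' processing notes name bcl2fastq, TopHat, HTSeq, edgeR and the mm10 build. The deposited values are the authors' whole-number counts per gene with no normalization, for 43430 gene IDs, 42462 of which matched a symbol; 8 value columns were matched to the 8 libraries by title. Loci and exon lengths came from GENCODE M21 (GRCm38).

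Counts were fitted with edgeR 4.0.16 (R 4.3.3; TMM factors, filterByExpr with a minimum count of 10, robust quasi-likelihood test with genotype as the only term, Benjamini-Hochberg adjustment over 12689 genes), after tests on simulated data. CPM values use TMM library sizes, and log2 levels a prior count of 2. The common biological coefficient of variation was 63.5%. Replicates differed beyond counting noise (chi-square per degree of freedom 34.5 to 77.4). DESeq2 1.42.0 and limma 3.58.1 were alternatives. Marker sums were compared by exact permutation. Floors of 3 counts cover counting error only. Intervals of fold changes come from the quasi-likelihood fit and cover the spread between libraries, also where no replicate SD is given.

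Members and lists were chosen with earlier results of these data known. Named genes are the 8 members, up to 2 genes of smallest p per role group, and the 3 nearest profiles of Hpgd, Slco2a1 and Ptgs1; other names are marked as chosen after their values were seen. Cyp2c44 of the wider list has no row.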

Additional observations from a re-analysis of the deposited data

Results flagged for a closer look

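No level of the 8 members, Uqcrq or wider-list genes chosen by smallest p stood far from the rest of its group. The genes named after their values were seen are not covered here. Of these, Pla2g4a was at 20.1 CPM in WT replicate 4 and at 9.12, 8.54 and 9.57 CPM in WT replicates 1 to 3. Among 70 groups of 4 libraries checked, 3 had a library whose gap to its nearest neighbour was large for the range of its group, all of them summed markers of other cell types, and chance alone flags about 5% of groups. Club and ciliated markers were lowest in WT replicate 2, at 92.21 CPM, where alveolar type 2, fibroblast and mural markers and Ptgs1 were also the lowest of the WT libraries. Myeloid markers were highest in KO replicate 3, at 368.1 CPM. Mesothelial markers were highest in the same library, at 108.4 CPM. Without KO replicate 3 the log2 fold change was −1.30 for Hpgd and −0.65 for Slco2a1.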

How the results depend on the processing

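Over all genes, 461 were called; DESeq2 called 862 (458 higher, 404 lower), the newer dispersion option 746 (450 and 296), a 2-fold minimum left 190 (114 and 76), and scaling to the endothelial markers gave 525 (421 and 104). Leaving out each library in turn gave 270 to 446 calls, 173 to 259 higher and 97 to 187 lower; the lowest of each came without KO replicate 3, and calls lower also fell to 111 without WT replicate 2 and to 105 without KO replicate 2. Of the wider list Akr1b8 was called by DESeq2 and the newer dispersion option, and Ptges3 with the alveolar type 2 covariate. With a library left out, 0 to 1 of its genes were called.

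Of the 6 members not called, 5 changed sign under at least 1 alternative; Ptgs1 ranged from −0.73 to −0.12 over 21. Leaving out WT replicate 3 together with KO replicate 1 gave a log2 fold change of −0.088 for Ptgr1, 0.34 for Ptgs2 and 0.13 for Ptgis; scaled to the endothelial markers, a scaling chosen after seeing the data, Ptgis was at 0.08. Over libraries left out in turn the ranges were −0.13 to 0.96 for Ptgr1, −0.45 to 0.094 for Ptgs2, −0.21 to 0.11 for Ptgis, −0.90 to 0.20 for Ptges, −0.039 to 1.25 for Ptger4 and −1.89 to 0.18 for Ptgir. The sign changed without WT replicate 3 (Ptgr1, Ptgs2), KO replicate 1 (Ptgs2, Ptgis), WT replicate 4 (Ptgis, Ptgir), KO replicate 2 (Ptger4), or any 1 of WT replicate 1, KO replicate 3 and KO replicate 4 (Ptges). Ptgir was at 0.93 with the alveolar type 2 covariate. Limma voom gave −1.90 for Ptges, 1.18 for Ptger4 and 1.23 for Ptgr1, and the replicate block −1.12, 2.38 and 1.05. The cause of these changes was not tested. Ptgr1, Ptges, Ptger4 and Ptgir each had a count of 0 in at least 1 library.

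Same-numbered WT and KO libraries did not deviate together (correlations −0.135 to 0.014), so the numbers were not taken as pairs. With a replicate block 338 genes were called, and Hpgd was at −1.35 and Slco2a1 at −0.69.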
